A study of Mus musculus with 16 samples.

Results

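Arntl, Clock, Npas2, Rora, Nfil3, Bhlhe40, Bhlhe41, Hlf and Usp2 were followed through liver regeneration with and without the histone chaperone HIRA. They are 9 of 55421 gene rows, and all 9 are among the 23018 genes that reached the minimum of 10 counts over all libraries. They were chosen by name, as activators of the circadian clock and genes known to peak with them or opposite to them, with results of these same counts already known. Which values weighed in that choice is not recorded, so every comparison is treated as one that the choice may have used. The calls and adjusted p-values given here therefore describe the genes and support nothing further.

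RNA from livers of male C57BL/6 mice was sequenced in 16 libraries, with 4 in each of 4 groups. HIRA KO mice were either HIRA fl/fl animals given AAV8-Tbg-Cre or wildtype animals given AAV8-Tbg-saCas9 with a guide against HIRA. Their controls were wildtype animals that had received AAV8-Tbg-Cre, or the Cas9 virus with a guide against Rosa26, so every mouse carried a virus with a nuclease or recombinase. Each group holds 2 libraries per deletion approach by design, but the columns of the count table do not say which. The Tbg promoter is active in hepatocytes, so the other cells of the liver were not targeted. Virus was injected at 6 months of age, and a partial hepatectomy 4 weeks later gave the tissue called before regeneration. The tissue called after regeneration is the remaining liver, collected 5 days later from the same mice. Operations were done in the morning per the study's methods, and the clock time of the later collection is not given in the sources used here. Time of day, lobe, the way of collection and regeneration therefore cannot be told apart between before and after. Whether control and HIRA KO mice were sampled at matched hours is also not given, so phase in the sense of clock time was not measured.

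Libraries held 15103059 to 21738619 counts (median 18337571). Hira itself was listed between 3.13 and 4.38 CPM (counts scaled to library size) in HIRA KO and between 5.21 and 6.18 CPM in control before regeneration. After regeneration the ranges were 3.04 to 4.56 CPM and 4.99 to 6.29 CPM, so the groups did not overlap at either time. Its log2 fold change was -0.70 ± 0.17 (SE) before and -0.69 ± 0.169 after, with edgeR adjusted p-values of 0.129 and 0.0666. DESeq2, the alternative method, gave adjusted p-values of 0.0127 and 0.00473. On the second principal component, which held 26.5% of the variance, HIRA KO libraries 1 and 2 stood apart at both times, at -47.4 to -36.2 against -1.14 to 31.2 for the other 12. Library numbers are the running numbers of the columns and match no label. Of these 4 libraries, the 2 before regeneration also had summed stellate cell and matrix markers of 583 and 407 CPM, against 189 to 222 CPM in the other 6 libraries taken before regeneration. Summed cholangiocyte markers were 143 and 97.0 CPM, against 47.7 to 73.7 CPM. The 2 also lay above the other 6 for proliferation, T cell, B cell and hepatocyte markers, but not for Kupffer cell or endothelial markers. The part of such markers in the results was not tested, and no marker of the 8 cell type lists was at 0 in a whole group. In bulk liver, fewer cells of a type and less RNA per cell cannot be told apart.

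The circadian clock is a feedback loop of transcription. BMAL1, the product of Arntl, pairs with CLOCK or its paralogue NPAS2 and binds E-box sequences to switch on the period and cryptochrome genes, the REV-ERB genes Nr1d1 and Nr1d2, and the PAR bZIP factors Dbp, Tef and Hlf. PER and CRY proteins then repress the activators, while REV-ERB repressors and ROR activators, RORA among them, compete for shared elements near Arntl, Npas2 and Nfil3. NFIL3 (E4BP4) and the PAR bZIP factors act in opposite directions on D-box sites. BHLHE40 and BHLHE41 (DEC1 and DEC2) compete with the activators at E-boxes, and Usp2 encodes a deubiquitinase that is a strongly rhythmic clock output in liver.

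Elements of the kinds named above were looked for in RefSeq promoter windows (GRCm38.p6) that run from 250 bases before a gene's start to 50 after it. A window was available for 8 of the 9 genes, and 12 windows in all, as Arntl has 2 and Clock 3. The E-box was searched as CACGTG, the D-box as TTANNTAA and the REV-ERB and ROR response element by its consensus, on both strands, and no match overlapped another. Only 2 of the genes held a match. They are shown because they are the letters through which the loop above is known to act, with the match in capitals.

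Arntl, response element, chr7:113207528-113207557, plus strand: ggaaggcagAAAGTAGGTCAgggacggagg
Bhlhe41, E-box, chr6:145865559-145865588, minus strand: ggatggtacgttccgCACGTGagctgggtg

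The Arntl match begins at base 27 past the start of its window's transcript and lies in an exon of GENCODE M21. The Bhlhe41 match begins 153 bases before the start of its window's transcript, at 145865420. It lies outside the gene in GENCODE M21, which on the minus strand begins at 145865558, nearer to the match. The response element is in 0.384% of all 32851 promoter windows, the E-box in 7.15% and the D-box in 6.0%. A match of letters is a description of the window and not a measured binding site.

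Arntl (ENSMUSG00000055116.8, chromosome 7, 113207465 to 113314126, plus strand, GRCm38) encodes the obligate activator of the loop. Before regeneration the 4 control libraries had 9.25, 9.14, 28.4 and 22.6 CPM, and the 4 HIRA KO libraries had 8.52, 17.5, 17.5 and 12.5 CPM. After regeneration control had 31.8, 29.5, 39.7 and 27.8 CPM, and HIRA KO had 13.2, 2.44, 25.7 and 12.6 CPM. Every HIRA KO library was thus below every control library after regeneration, whereas the groups overlapped before it. The control group also changed in evenness: its highest library was 3.11 times its lowest before regeneration and 1.43 times after. In HIRA KO the ratio was 2.06 before and 10.5 after, the last set by library 2, without which it was 2.04.

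Npas2 (ENSMUSG00000026077.15, chromosome 1, 39193731 to 39363236, plus strand) encodes the paralogue that can stand in for CLOCK, and its pattern was the same in outline but steeper. Control had 1.49, 1.24, 6.70 and 5.39 CPM before regeneration and 9.96, 11.0, 14.2 and 8.83 CPM after it. HIRA KO had 1.48, 2.67, 2.65 and 1.06 CPM before and 2.54, 0.0444, 5.26 and 1.84 CPM after. All 4 control libraries after regeneration exceeded each of the other 12, and HIRA KO library 2 after regeneration held 1 read. The FPKM listed for that library was 0.149, so the deposited FPKM and counts do not share all reads.

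Clock (ENSMUSG00000029238.11, chromosome 5, 76209868 to 76304792, minus strand), the other partner of BMAL1, was far steadier. It ran from 29.8 to 37.8 CPM in control and 34.8 to 46.1 CPM in HIRA KO before regeneration, and from 32.7 to 46.1 CPM in control after it. HIRA KO after regeneration had 40.2, 17.0, 43.3 and 35.8 CPM, so library 2 alone lay below the range of all others. On the FPKM scale, Npas2 made up 38.8% to 54.3% of the sum of Npas2 and Clock in control after regeneration and 9.05% to 30.8% in HIRA KO after it. Before regeneration these shares were 6.70% to 36.4% and 11.5% to 23.8%. The 9.05% is that of HIRA KO library 2 after regeneration, where Npas2 held 1 read.

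Rora (ENSMUSG00000032238.17, chromosome 9, 68653786 to 69388246, plus strand) encodes the activator at response elements like that of Arntl. It had the narrowest range of the 9 genes, 46.6 to 78.9 CPM over all 16 libraries, a ratio of 1.69. Group means ± SD (n = 4) were 56.0 ± 8.13 and 67.9 ± 9.32 CPM before regeneration in control and HIRA KO, and 57.3 ± 7.57 and 54.9 ± 6.59 CPM after it. No pair of groups separated. A level of its RNA says nothing of the protein's activity.

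Nfil3 (ENSMUSG00000056749.7, chromosome 13, 52967209 to 52981073, minus strand), the D-box repressor, followed the split seen for Arntl. Control before regeneration had 15.6, 15.4, 71.7 and 58.9 CPM, with the same 2 libraries low and the same 2 high. HIRA KO before had 12.8, 20.3, 49.6 and 25.0 CPM. Control after regeneration was even again, at 58.9, 44.7, 48.9 and 44.0 CPM, and HIRA KO had 20.4, 11.7, 41.2 and 19.8 CPM, all 4 below it.

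**Figure D1:**
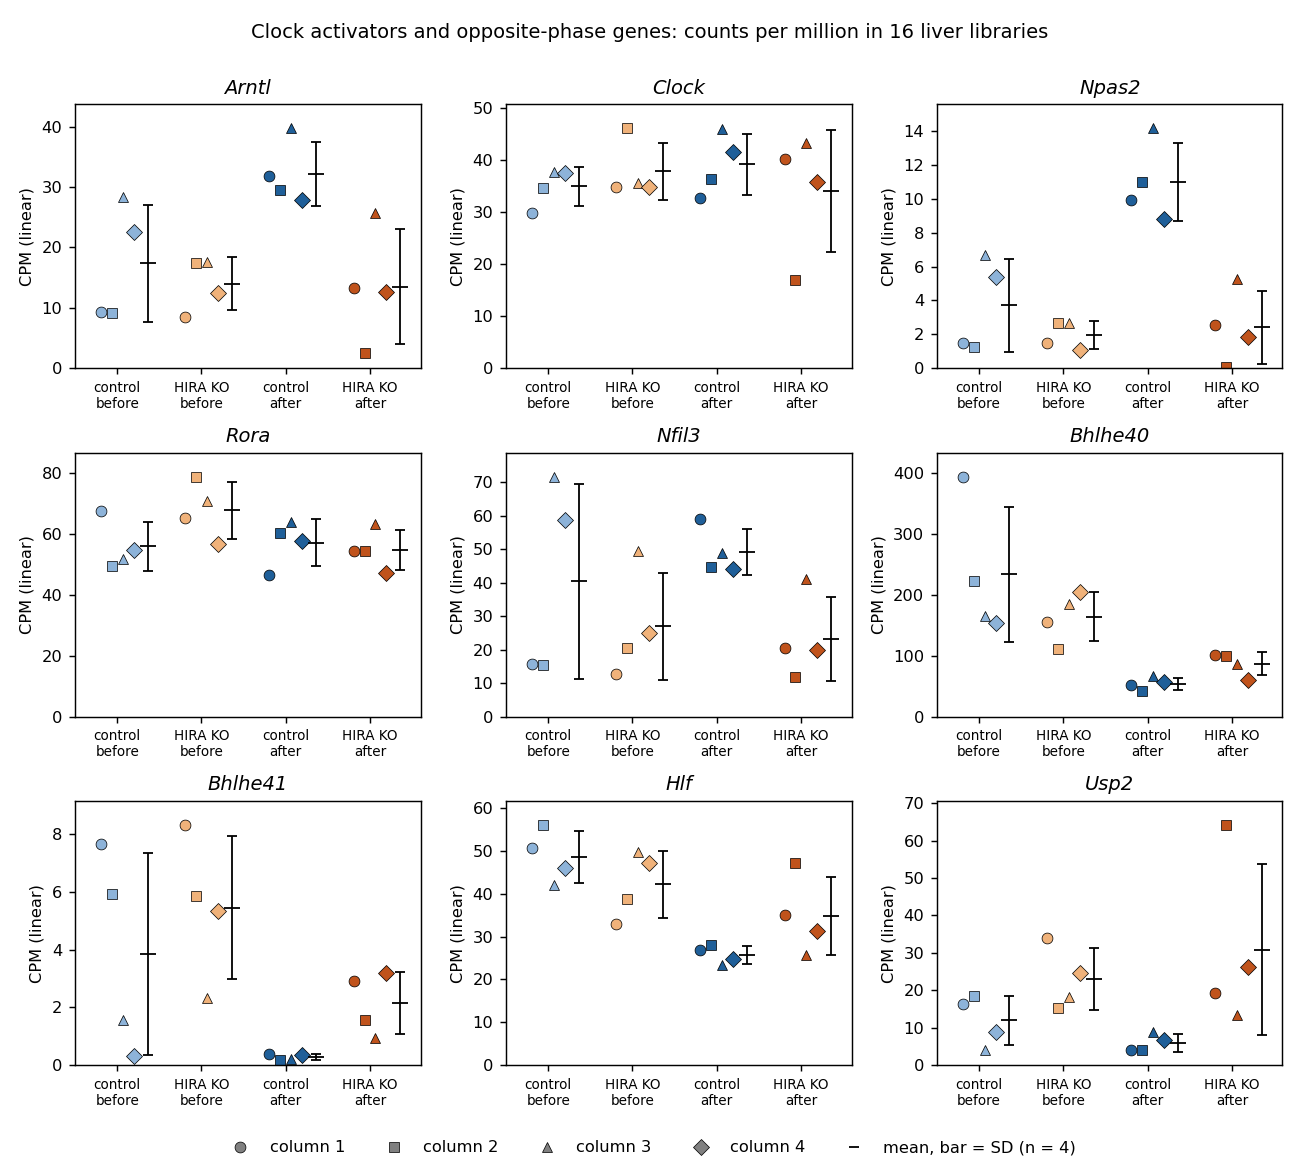
CPM (linear vertical axis, one panel per gene) in each library of the 4 groups, with the marker shape giving the running number of the column and the black dash and bar the mean and SD of 4 libraries. Arntl and Npas2 were highest in control after regeneration (27.8 to 39.7 and 8.83 to 14.2 CPM), Bhlhe41 was lowest there (0.172 to 0.376 CPM), and Rora kept to 46.6 to 78.9 CPM throughout.

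Bhlhe40 (ENSMUSG00000030103.11, chromosome 6, 108660629 to 108666925, plus strand) encodes an E-box repressor that also responds to hypoxia and other stimuli. Control had 393, 223, 165 and 153 CPM before regeneration and 51.7, 42.0, 65.8 and 56.0 CPM after it. HIRA KO had 155, 111, 185 and 204 CPM before and 101, 98.8, 85.6 and 60.5 CPM after. In both genotypes every library after regeneration was lower than every library before it. After regeneration 3 of 4 HIRA KO libraries lay above the control range, and library 4 lay inside it.

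Bhlhe41 (ENSMUSG00000030256.11, chromosome 6, 145858243 to 145865558, minus strand), its paralogue, had the lowest median FPKM of the 9 genes over all libraries (0.395). Its highest CPM was 48.3 times its lowest, a spread second to that of Npas2 (319 times, on 1 read). Control had 7.66, 5.92, 1.55 and 0.296 CPM before regeneration, so the libraries low in Arntl were the ones high in Bhlhe41. Control after regeneration had 0.376, 0.172, 0.218 and 0.336 CPM, from only 3 to 7 reads a library and 20 in all. HIRA KO had 8.31, 5.87, 2.31 and 5.32 CPM before and 2.90, 1.55, 0.948 and 3.17 CPM after. The lowest HIRA KO library after regeneration was thus above the highest control library.

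Hlf (ENSMUSG00000003949.16, chromosome 11, 90336536 to 90390895, minus strand), a PAR bZIP activator at D-boxes, varied little within a group, with a coefficient of variation of 8.12% in control after regeneration. In HIRA KO after regeneration it was 26.2%, and 15.5% without library 2. Control went from 50.8, 56.1, 42.0 and 46.0 CPM before regeneration to 26.9, 28.0, 23.3 and 24.9 CPM after it, with no overlap. HIRA KO had 32.9, 38.9, 49.8 and 47.2 CPM before and 35.0, 47.1, 25.6 and 31.2 CPM after, so its times overlapped.

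Usp2 (ENSMUSG00000032010.15, chromosome 9, 44067021 to 44095627, plus strand), the rhythmic deubiquitinase gene, was low in libraries where Arntl was high, except within control after regeneration, where library 3 was the highest for both. Control before regeneration had 16.2, 18.5, 4.06 and 8.82 CPM, and HIRA KO had 33.9, 15.3, 18.2 and 24.6 CPM. Control after regeneration had 3.88, 4.01, 8.94 and 6.77 CPM, and HIRA KO had 19.4, 64.1, 13.4 and 26.2 CPM. All 4 HIRA KO libraries after regeneration exceeded all 4 controls, and library 2, the lowest for Arntl, was the highest for Usp2.

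The balance of the 2 sides was read from the log2 ratio of Arntl to Usp2 CPM in each library. It was 2.04 to 3.03 in control after regeneration and -4.71 to 0.94 in HIRA KO after it. Before regeneration the ranges were -1.01 to 2.80 in control and -1.99 to 0.19 in HIRA KO, which overlapped. The log2 ratio of Nfil3 to Hlf was 0.68 to 1.13 in control after regeneration and -2.01 to 0.69 in HIRA KO after it, which overlapped at the edge.

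**Figure D2:**
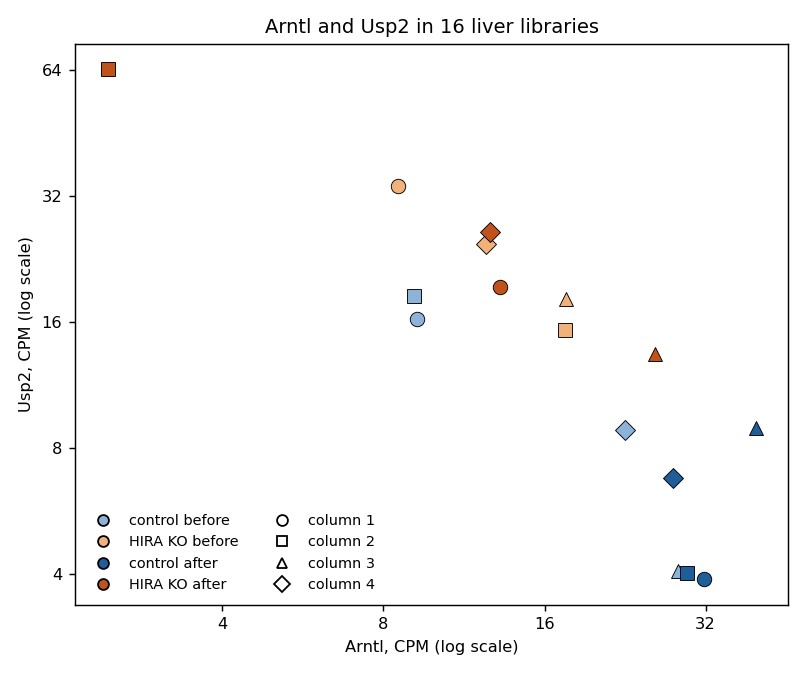
Usp2 against Arntl in the 16 libraries, both in CPM on log scales, with colour for the group and marker shape for the running number of the column. Libraries run from high Arntl and low Usp2, where all 4 of control after regeneration lie, to HIRA KO after regeneration library 2 at 2.44 CPM of Arntl and 64.1 CPM of Usp2.

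Levels were compared between genes per length, as deposited FPKM. In control before regeneration the order of the means was Bhlhe40 (63.8 FPKM), Nfil3 (15.9), Hlf (9.60), Arntl (4.57), Rora (4.19), Usp2 (3.63), Clock (2.75), Npas2 (1.00) and Bhlhe41 (0.850). Neighbours whose ranges over libraries overlapped were Nfil3 and Hlf, then Arntl through Clock, then Npas2 and Bhlhe41. In control after regeneration Nfil3 led (21.4 FPKM), clear of Bhlhe40 (15.5), which was clear of Arntl (9.31), and Bhlhe41 stood alone at the end (0.0591). In HIRA KO after regeneration the means ran from 25.4 FPKM for Bhlhe40 to 0.521 for Bhlhe41, and among neighbours in that order Hlf and Rora alone did not overlap.

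The first comparison asked whether loss of HIRA changed these genes in resting liver. Among the 9 genes, edgeR called 0 at an adjusted p under 0.05 over all genes tested, against 0.0391% of all genes. There were 0 at an unadjusted p under 0.05, against 13.2% of all genes, and DESeq2 called 0, against 2.49% of the genes it adjusted. In 0 of the 9 did the groups not overlap, against 8.07% of all genes. Log2 fold changes ran from -0.91 for Npas2, where the mean was 1.97 ± 0.818 CPM in HIRA KO against 3.70 ± 2.75 CPM in control, to 0.95 for Usp2. Their median was -0.21, beside 0.01 over all genes. For Rora the log2 fold change of 0.28 ± 0.134 had the smallest error of these.

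The second asked the same of liver after regeneration, where the 9 genes spread further. Arntl had a log2 fold change of -1.26 ± 0.544 (mean of 13.5 ± 9.52 CPM in HIRA KO against 32.2 ± 5.28 CPM in control), Npas2 of -2.18 ± 0.748 and Nfil3 of -1.08 ± 0.56. Bhlhe41 had 2.93 ± 0.849 and Usp2 2.38 ± 0.563, from 30.8 ± 22.8 CPM in HIRA KO against 5.90 ± 2.42 CPM in control. For Bhlhe40 it was 0.68 ± 0.277, for Hlf 0.43 ± 0.164, for Clock -0.20 ± 0.213 and for Rora -0.06 ± 0.134. By edgeR 0 of the 9 were called, against 0.491% of all genes, and 6 had an unadjusted p under 0.05, against 15.8% of all genes. Usp2 came nearest, with an edgeR adjusted p of 0.0759, and Bhlhe41 followed at 0.117. DESeq2 called both, Usp2 with an adjusted p of 2.31e-04 and Bhlhe41 with 0.00321, against 5.93% of the genes it adjusted.

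Without overlap after regeneration, 3 genes were lower in HIRA KO (Arntl, Npas2 and Nfil3), against 4.45% of all genes, and 2 were higher (Bhlhe41 and Usp2), against 3.65%. The median log2 fold change was -0.06, beside 0.02 over all genes, with values on both sides of 0. Leaving out the 4 HIRA KO libraries that stand apart kept the sides of the 5 genes and lessened each value. Without them the log2 fold change was -0.72 for Arntl, -1.59 for Npas2, -0.66 for Nfil3, 2.87 for Bhlhe41 and 1.75 for Usp2, with edgeR adjusted p-values of 0.307 and above. HIRA KO after regeneration then rests on libraries 3 and 4 alone.

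**Figure D3:**
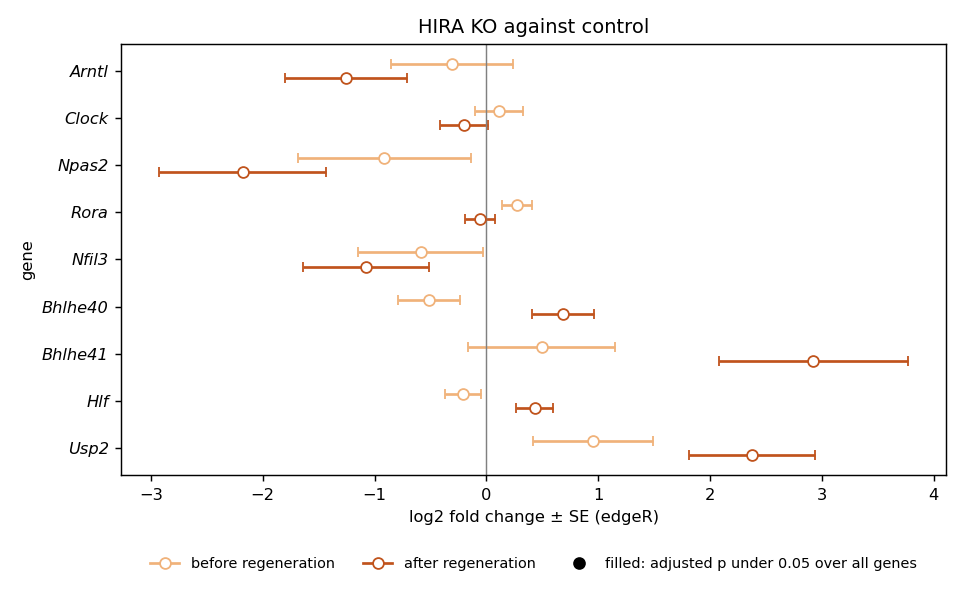
Log2 fold change of HIRA KO over control (horizontal axis, bars are the SE of the edgeR fit) for each gene before and after regeneration, with open circles where the adjusted p over all genes was not under 0.05, which is every one. Values lie between -0.91 and 0.95 before regeneration and between -2.18 and 2.93 after it.

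The third comparison set control liver after regeneration against control liver before it. Time of day, lobe and the way of collection cannot be told apart from regeneration here. Bhlhe40 fell by 2.12 ± 0.286 on the log2 scale, from 233 ± 111 to 53.9 ± 9.87 CPM (edgeR adjusted p = 4.92e-04). Bhlhe41 fell by 3.78 ± 0.841, from 3.85 ± 3.50 to 0.276 ± 0.0962 CPM (adjusted p = 0.0111), and Hlf by 0.92 ± 0.165, from 48.7 ± 6.08 to 25.8 ± 2.09 CPM (adjusted p = 0.00215). These 3 of 9 compare with 4.17% of all genes called lower, and each kept its call when any 1 of the 8 libraries was left out. None of the 9 was called higher by edgeR or DESeq2, against 6.04% of all genes by edgeR. In either direction, 4 of the 9 had an unadjusted p under 0.05 by edgeR, against 23.5% of all genes. These were the 3 called lower and Npas2, which was higher. Npas2 had a log2 fold change of 1.58 ± 0.73 with an adjusted p of 0.213, and Arntl of 0.90 ± 0.54 with 0.358.

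By overlap, Npas2 was the 1 gene of the 9 higher in every control library after regeneration, against 10.0% of all genes. Bhlhe40 and Hlf were the 2 lower in every library, against 8.98%. Bhlhe41 was called although control library 4 before regeneration, at 0.296 CPM, fell within the later range. As FPKM, 2 more genes did not overlap in control, and no share over all genes was computed on that scale. Arntl was higher, at 8.45 to 11.3 FPKM after against 2.46 to 7.53 before. Bhlhe41 was lower, at 0.0308 to 0.0862 FPKM after against 0.174 to 1.57 before. The 0.174 FPKM is that of control library 4 before regeneration, which held 5 reads of Bhlhe41. Over all comparisons of 2 groups, FPKM and CPM gave the same result in 34 of 36 cases. Clock, Rora and Nfil3 had log2 fold changes of 0.16, 0.03 and 0.28, and Usp2 of -1.01 ± 0.555 with an adjusted p of 0.307.

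In HIRA KO liver the same step gave 1 call among the 9. Bhlhe40 fell by 0.92 ± 0.277, from 164 ± 40.4 to 86.5 ± 18.6 CPM (edgeR adjusted p = 0.0418), against 5.53% of all genes called lower. Of 8 fits that left out a library, the call held in 1, the fit without HIRA KO before regeneration library 2. It was also the 1 gene of the 9 whose times did not overlap, being lower, against 7.45% of all genes. None was called higher by edgeR or DESeq2, or had an unadjusted p under 0.05 in that direction, against 6.48% of all genes called higher by edgeR. In either direction, 2 of the 9 had an unadjusted p under 0.05 by edgeR, Bhlhe40 and Rora, against 27.4% of all genes. Rora had -0.31 ± 0.134 with an edgeR adjusted p of 0.147. Hlf had -0.28 ± 0.163, Bhlhe41 -1.35 ± 0.676, Arntl -0.05 ± 0.546 and Npas2 0.31 ± 0.776. Without the 4 libraries that stand apart, Bhlhe40 had -1.39 with an adjusted p of 0.0729, while Hlf was called at -0.76 with an adjusted p of 0.00507.

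**Figure D4:**
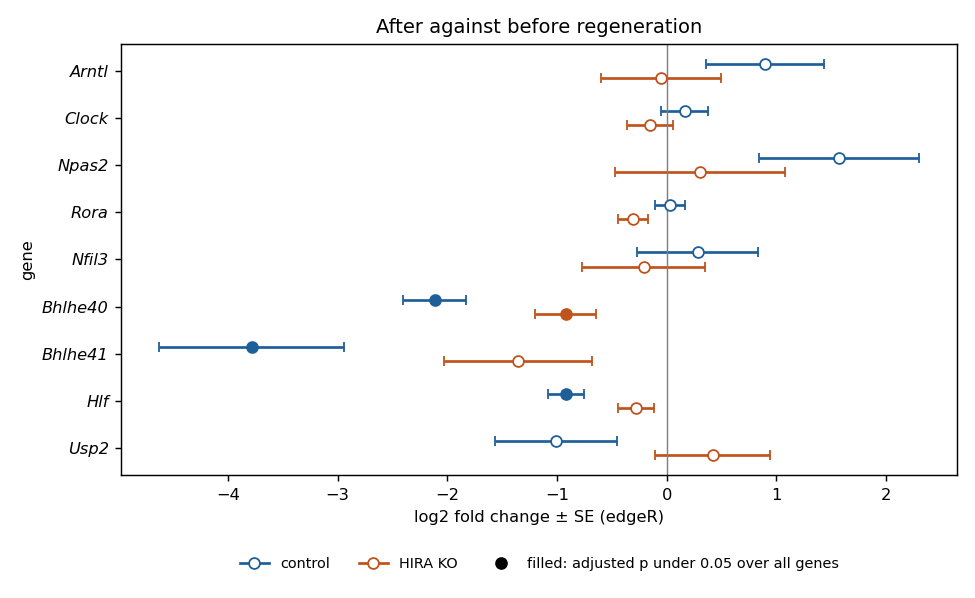
Log2 fold change of after over before regeneration (horizontal axis, bars are the SE of the edgeR fit) for each gene in control and in HIRA KO, with filled circles for an adjusted p under 0.05 over all genes. Bhlhe40, Bhlhe41 and Hlf are filled in control, and Bhlhe40 in HIRA KO.

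The interaction asked whether the step through regeneration differed between genotypes. By edgeR 0 of the 9 genes passed, as did 0.0% of all genes, and 3 had an unadjusted p under 0.05, against 6.81% of all genes. These were Bhlhe40 (1.20 ± 0.39 on the log2 scale), Bhlhe41 (2.43 ± 1.08) and Hlf (0.64 ± 0.231), the genes called lower in control. DESeq2 called 0 of the 9, against 0.424% of the genes it adjusted. A call in control and none in HIRA KO is therefore not shown to be a difference between genotypes for any of the 9. Both regeneration comparisons and both HIRA KO comparisons draw on shared groups, so their values are set side by side and not counted as repeats.

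A list of 19 other clock loop genes, of which 18 were tested, gives the setting. HIRA KO against control called 0 before regeneration by edgeR, against 0.0391% of all genes. There, 1 had an unadjusted p under 0.05, against 13.2% of all genes, and DESeq2 called 1, against 2.49% of the genes it adjusted. After regeneration edgeR called 1, higher, against 0.2% of all genes called higher. That gene was Ciart, a repressor of the BMAL1 and CLOCK pair, with 14.0, 34.3, 4.51 and 3.28 CPM in HIRA KO against 0.689, 0.344, 0.545 and 0.48 CPM in control. Its log2 fold change was 4.76 ± 0.772 with an edgeR adjusted p of 0.0383. HIRA KO libraries 1 and 2, 2 of those that stand apart, were its highest. Fits that left out 1 library of the comparison called 0 to 5 genes of the list there, the most without HIRA KO after regeneration library 3. After regeneration groups did not overlap for 5 of the 18, all higher in HIRA KO, against 3.65% of all genes. These were Per1, Per3, Nr1d2, Dbp and Ciart. Dbp, the PAR bZIP factor that is the classic direct E-box target, had 37.9, 87.0, 5.64 and 26.5 CPM in HIRA KO against 3.07, 3.38, 0.872 and 3.17 CPM in control. Before regeneration groups did not overlap for 1 gene higher in HIRA KO, Ciart, and 2 lower, against 8.07% of all genes in either direction. Ciart then had 13.5, 6.80, 9.38 and 8.33 CPM in HIRA KO against 4.38, 2.80, 0.973 and 2.19 CPM in control.

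With regeneration in control, edgeR called 8 of the 18 lower and 0 higher, against 4.17% and 6.04% of all genes. DESeq2 called 10 lower and 1 higher, against 1478 lower and 1796 higher of the 17542 genes it adjusted. By edgeR 11 in all had an unadjusted p under 0.05, against 23.5% of all genes. The median log2 fold change was -0.91 beside 0.003 over all genes. The 8 were the period genes Per1 (-2.22), Per2 (-1.66) and Per3 (-2.61), the repressor genes Cry2 (-0.79), Nr1d1 (-1.20) and Nr1d2 (-1.04), and the PAR bZIP genes Dbp (-3.19) and Tef (-1.77). Hlf, the other PAR bZIP gene, had -0.92. Fits that left out 1 of the 8 control libraries called 3 to 6 of the list, with 3 without library 1 or 2 before regeneration or library 4 after it. Fits that left out 1 HIRA KO library, which enters through the shared spread, called 5 to 10. In HIRA KO edgeR called 2 lower, Nr1d1 (-1.29) among them, and 1 higher, against 5.53% and 6.48% of all genes. The 1 higher was Timeless (1.09), which also acts at replication forks. In control, where edgeR did not call it, Timeless had 7.14 to 8.34 CPM after regeneration and 4.52 to 5.76 CPM before it. Summed proliferation markers were 36.3 to 236 CPM in HIRA KO after regeneration and 4.15 to 18.0 CPM before it. In control they were 33.0 to 257 CPM after and 3.08 to 8.19 CPM before. The part of proliferation in the level of Timeless was not tested.

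**Figure D5:**
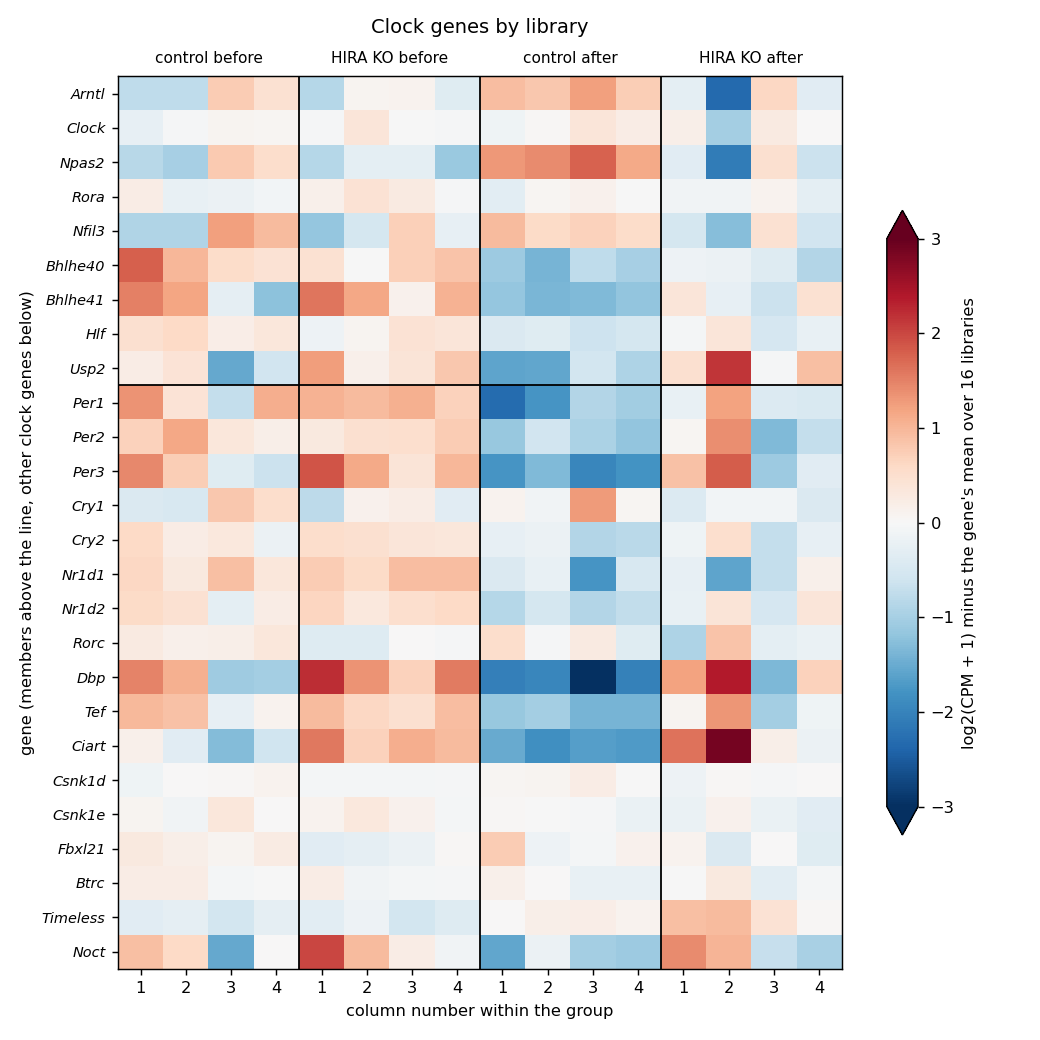
Each row is a gene, with the 9 genes above the line and other clock genes below, and each column a library. Colour is log2(CPM + 1) minus the gene's mean over 16 libraries, from -3 (blue) to 3 (red). In all libraries of control after regeneration, Arntl, Npas2 and Nfil3 are above their means and Usp2, Dbp and Per3 below. The same holds in libraries 3 and 4 of control before regeneration. It also holds in HIRA KO after regeneration library 3, where Usp2 is close to its mean. HIRA KO after regeneration library 2 is among the libraries that show the opposite.

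Other lists bear on feeding, hormones and output of the clock. Over all genes, edgeR called 6.04% higher and 4.17% lower with regeneration in control, and 6.48% and 5.53% in HIRA KO. Of 16 clock-controlled liver outputs, control called Tspan4 higher (0.94) and Rgs16, a feeding-entrained regulator of G protein signals, lower (-5.73) after regeneration, and HIRA KO called Rgs16 lower (-3.84). Of 16 glucocorticoid and fasting genes, control called 2 higher and 3 lower. The lower were Tat (-1.95), Pck1 (-1.68) and G6pc (-2.86), enzymes of amino acid breakdown and glucose synthesis, and the higher were Fkbp5 (0.98), a glucocorticoid target, and Mt2 (4.39). HIRA KO called 1 higher and 5 lower. Of 11 feeding and lipogenesis genes, 2 were lower in control, Thrsp (-2.22) among them, and 5 in HIRA KO. For HIRA KO against control, 0 genes of these 3 lists were called at either time by edgeR. At an unadjusted p under 0.05 there were 4, 0 and 2 before regeneration and 4, 1 and 4 after it. Over all genes these shares were 13.2% and 15.8%. DESeq2 called 1, 0 and 1 before and 2, 0 and 0 after, against 2.49% and 5.93% of the genes it adjusted. Without overlap there were 5, 0 and 1 before, all higher in HIRA KO, against 8.07% of all genes in either direction. After regeneration there were 1, 0 and 0, also higher, against 3.65% of all genes. The part of feeding or hormones in the levels of the 9 genes was not tested.

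Likeness to Arntl was measured as Pearson's r of log2(CPM + 1) over the 16 libraries among 13175 other genes with a mean of at least 1 CPM. The libraries come in pairs from the same mice and in 4 groups, so r is a description. Npas2 was the most like of all, with r of 0.949, and the 8 most like also held St5 (0.91), Leo1 (0.908), Tab2 (0.899), Ap2a2 (0.897), Gm37824 (0.889) and Trim2 (0.887). The most unlike were Dbp (-0.885), Ngef (-0.885), Usp2 (-0.88), Azin2 (-0.867), Iffo2 (-0.862), Per3 (-0.857), Tef (-0.853) and Ccdc57 (-0.85). Among the 9 genes, Nfil3 ranked 11 from the top at 0.872 and Clock 109 at 0.775. Rora had 0.0458, Bhlhe40 -0.447, Hlf -0.608 and Bhlhe41 -0.623.

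With the mean of each group taken away, r was 0.963 for Npas2, still first, 0.843 for Clock, 0.822 for Nfil3 and -0.864 for Usp2. The 2 libraries farthest from the median of Arntl were control after regeneration 3 and HIRA KO after regeneration 2. Over the 14 others, r of the levels was 0.945 for Npas2, 0.909 for Nfil3 and -0.87 for Usp2, and with the group means taken away 0.95, 0.88 and -0.896. For Clock it was 0.384 for the levels and 0.694 with the group means taken away. Over all 4 of these measures r ran from -0.906 to -0.487 for Bhlhe41, from -0.649 to -0.439 for Hlf, from -0.641 to -0.405 for Bhlhe40 and from -0.14 to 0.154 for Rora. The order of the first 3 changed with the measure.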

How the data were processed

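Bulk liver RNA from 16 samples had been sequenced after poly-A selection. Per the study's methods the authors trimmed reads, aligned them with STAR to mm10 and counted genes with HOMER, while the submitters' processing notes name HTSeq and Cufflinks, and the strand setting of counting is not given in the sources used here. The deposited count table holds whole-number counts per gene. The deposited FPKM table, scaled by the authors for length and library size, was used to compare levels between genes and, where said, the overlap of groups. Its empty cells (48.6% to 54.7% of a library) were read as 0. Of 55421 gene IDs, 54587 matched GENCODE M21, the source of positions. Genes of the opposite strand that overlap exons of the 9 genes held at most 10 reads in a library.

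Genes with at least 10 counts in total were tested with edgeR (4.0.16, R 4.3.3): TMM scaling, 1 model of 4 group means, robust quasi-likelihood test and Benjamini-Hochberg adjustment over 23018 genes, with calls at an adjusted p under 0.05. The SE is the absolute log2 fold change over the square root of F. CPM uses TMM-scaled library sizes, and values are mean ± SD over 4 libraries. DESeq2 (1.42.0), other filters and omitted libraries served as alternatives. DESeq2 gave no adjusted p to genes its own filter left out. The script was tested on simulated data. Replicate pairs differed by 12.4 to 135 in chi-square per degree of freedom, so each library was counted once. Replicates are separate samples by the labels, and columns were placed in groups by name only. Counting error at this depth limits genes of few reads.

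The 9 genes, the 4 lists and the 8 marker lists were chosen with earlier results of these data known. Named are the 9 genes and Hira, list genes called in a HIRA KO comparison, up to 4 called list genes per comparison of largest change, and the 8 genes most and least like Arntl. Further called genes of the lists, the 5 without overlap after regeneration, and the values of Dbp and of Timeless in control are named beyond that rule, after their values were seen. A few genes that this rule names are not reported here.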

Additional observations from a re-analysis of the deposited data

Results flagged for a closer look

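Clock in HIRA KO before regeneration library 2 was 46.1 CPM, while the other 3 libraries of its group lay between 34.8 and 35.6 CPM. The gap to the nearest of them was 0.935 of the range of the group, above Dixon's critical value for 4 samples. It was the 1 such library over 36 groups of 4 examined, where chance alone gives about 1 in 20 groups, and it is 1 of the 4 HIRA KO libraries that stand apart. Without it the log2 fold change of Clock for HIRA KO against control before regeneration was 0.00464, beside 0.11 with all libraries.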

How the results depend on the processing

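No paired analysis was possible because the columns carry no mouse, deletion approach or label replicate number, and fits within a deletion approach were not run for the same reason. Of the 9 genes, the counts called were 0 before and 0 after for HIRA KO against control, 3 and 1 with regeneration in control and HIRA KO, and 0 for the interaction. DESeq2 raised the second to 2, filterByExpr (edgeR's stricter filter) to 1, and no count filter lowered the fourth to 0. Leaving out 1 library of the comparison gave 0 to 0, 0 to 1, 3 to 3, 0 to 1 and 0 to 0. The 1 in the second case is Usp2 without HIRA KO library 3. Without the 4 HIRA KO libraries that stand apart, log2 fold changes turned for Arntl (regeneration in HIRA KO, 0.38), Clock (HIRA KO after regeneration 0.0327, regeneration in HIRA KO 0.18, interaction 0.0189), Bhlhe41 (HIRA KO before regeneration, -0.0232) and Usp2 (regeneration in HIRA KO, -0.10). None of these was called in either fit. Leaving out 1 library turned the sign of uncalled values in 17 fits. Ranges for HIRA KO against control were -0.52 to 0.0426 for Arntl before regeneration, and -0.32 to 0.0369 for Clock and -0.15 to 0.0197 for Rora after it. For regeneration they were -0.0213 to 0.14 for Rora in control and, in HIRA KO, -0.57 to 0.32 for Arntl, -0.28 to 0.0915 for Clock, -0.41 to 0.74 for Npas2, -0.63 to 0.29 for Nfil3 and -0.21 to 0.68 for Usp2. Over all genes, HIRA KO before regeneration called 9 (DESeq2 382, no filter 36, without the 4 libraries 5, 1 library out 1 to 33). HIRA KO after it called 113 (DESeq2 910, filterByExpr 228, only the groups compared 0, without the 4 libraries 15, 1 library out 5 to 452). Regeneration called 2350 in control (without the 4 libraries 3858, 1 library out 1530 to 2357) and 2764 in HIRA KO (only the groups compared 1431, 1 library out 1678 to 2771), and the interaction 0 (DESeq2 67, no filter 1, 1 library out 0 to 7). Of the other clock loop genes, HIRA KO before regeneration called 0 (DESeq2 1) and after it 1 (DESeq2 6, filterByExpr 2, only the groups compared 0, 1 library out 0 to 5). Regeneration called 8 in control (DESeq2 11, filterByExpr 11, only the groups compared 10, without the 4 libraries 11, no filter 3, 1 library out 3 to 6). In HIRA KO it called 3 (no filter 2, only the groups compared 2, without the 4 libraries 2, 1 library out 2 to 5). Of the outputs, HIRA KO called 0 before (DESeq2 1) and 0 after (DESeq2 2, 1 library out 0 to 1). Regeneration called 2 in control (DESeq2 4, no filter 1, without the 4 libraries 5, 1 library out 1 to 3) and 1 in HIRA KO (DESeq2 2, filterByExpr 2, only the groups compared 0, 1 library out 1 to 2). Of the glucocorticoid and fasting genes, regeneration called 5 in control (DESeq2 10, only the groups compared 8, without the 4 libraries 8, 1 library out 4 to 6) and 6 in HIRA KO (only the groups compared 3, 1 library out 4 to 5). Of the feeding genes, HIRA KO before regeneration called 0 (DESeq2 1), and regeneration in HIRA KO called 5 (without the 4 libraries 3, 1 library out 3 to 6). The causes were not tested. With 3 to 7 reads a library, the level of Bhlhe41 in control after regeneration is limited by depth.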
